A study of Oryza sativa with 4 samples.

Results

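Rice genes annotated to nitrogen response and lying near OsMADS2-bound chromatin are described here. OsMADS2 is a PISTILLATA-like MADS-domain transcription factor of rice, known for its part in lodicule and stamen identity. The genes were taken from 3 terms of the authors' deposited gene ontology (GO) table, namely response to nitrate, cellular response to nitrogen starvation and response to ammonium ion. Genes also listed under inflorescence development, flower development, auxin or brassinosteroid signaling were left out, as was OsSPL14. Of 27 genes under the 3 terms 7 were thus set aside, and 20 remained, of the 2589 genes in the authors' table of confident regions. They form 25 region-gene pairs with 24 of the 1442 regions. A confident region is a merged stretch that holds a peak in each of 3 peak lists, so having a peak in every list is how the genes were chosen and is no result.

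Chromatin immunoprecipitation with sequencing (ChIP-seq) was done on wild-type TP309 panicles of 0.3 to 2 cm, fixed in 1% formaldehyde and cut with micrococcal nuclease to 150 to 900 bp. The libraries are 2 from an anti-OsMADS2 antibody (called IP5 and IP6) and 2 from a rabbit IgG mock (mock 5 and mock 6), and the file headers call the numbers biological replicates. Uniquely mapped reads ran from 9142837 (IP5) to 16742118 (mock 6), with 15934402 in IP6. All plants were wild type and no expression was measured, so the values say where chromatin was enriched over mock and not what happened to transcripts, and the labelled tissue could not be set against marker genes. A fold below is the authors' enrichment of the highest peak in a region for 1 IP library over 1 mock library. IP5 over mock 5 and IP6 over mock 6 share no library. IP5 over mock 6 shares a library with each of them.

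Plants take up nitrate and ammonium through membrane transporters, and proton pumps supply the gradient that drives nitrate uptake. Nitrate is reduced to ammonium inside the plant. Glutamine synthetase joins ammonium to glutamate, and glutamate synthase (GOGAT) passes the nitrogen on, which together is the main entry of nitrogen into amino acids. In rice this supply is known to affect tillering, panicle size and grain filling.

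The nitrate transporter genes OsNRT1.1A and OsPTR2 had the highest fold of the 20 genes in IP5 over mock 5 (OsNRT1.1A) and in IP6 over mock 6 (OsPTR2). OsCIPK02, described further on, stood between them in IP5 over mock 5 and after both in IP6 over mock 6. OsNRT1.1A (Os08g0155400) encodes a member of the NRT1/PTR family known in rice for its part in nitrate and ammonium use. Its region (chromosome 8, 3182197 to 3183040) crossed the 3′ end of the gene. The fold there was 6.40 for IP5 over mock 5, 5.73 for IP5 over mock 6 and 4.67 for IP6 over mock 6. The 2 pairs without a shared library gave a mean of 5.54 ± 1.22 (SD, n = 2). The same region crossed the start of another gene, Os08g0155550, so it cannot be assigned to OsNRT1.1A alone.

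At its own start OsNRT1.1A had peaks in IP5 and none in IP6. With mock 5 as control, an IP5 peak from 46 bp before to 285 bp after the start had a fold of 4.13, and another from 429 to 662 bp after it had 5.26. With mock 6 a single IP5 peak spanned 27 bp before to 681 bp after the start, with a fold of 5.66. In IP6 over mock 6 the first peak after the start lay at 4474 bp (fold 2.62), followed by others at 5216 bp (2.51) and 5710 bp (2.51), inside the gene. The start of OsNRT1.1A was thus enriched in IP5 over either mock and was not called in IP6, the IP library with more unique reads, which is why the confident table lists the gene by its end only. A place with no called peak is not shown to be unbound.

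OsPTR2 (Os12g0638200, also OsNPF2.2) encodes a nitrate transporter known in rice for unloading nitrate from the xylem. It was the only one of the 20 genes with 3 confident regions. The region across its start (chromosome 12, 27349295 to 27351579) had folds of 5.10, 6.79 and 5.42 in the order of lists used for OsNRT1.1A, a mean of 5.26 ± 0.23 (SD, n = 2) for the pairs without a shared library. Of the 8 regions across the start of any of the 20 genes, it was the only one with a fold of 3 or more in both of those pairs. The OsNRT1.1A region, across the start of Os08g0155550, also reached 3 in both. So did 34.7% of all regions, at any position.

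The second OsPTR2 region lay inside the gene near its 3′ end (27346455 to 27346856), with folds of 4.26, 4.30 and 3.47. The third lay 1482 bp downstream (27343590 to 27344829), where the folds were 2.42, 4.09 and 6.54. The replicates differed there in place as well as in size. The IP6 peak of 6.54 stood 5830 to 6466 bp from the gene start, while the IP5 over mock 5 peak stood at 6722 to 7069 bp. The IP5 over mock 6 peak, from 6307 to 7068 bp, overlapped both. A smaller IP6 peak (fold 4.07) overlapped the IP5 over mock 5 peak by 37 bp, and the IP6 peak of 6.54 did not reach it. That downstream region crossed the start of a neighbouring gene, Os12g0638100.

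**Figure D1:**
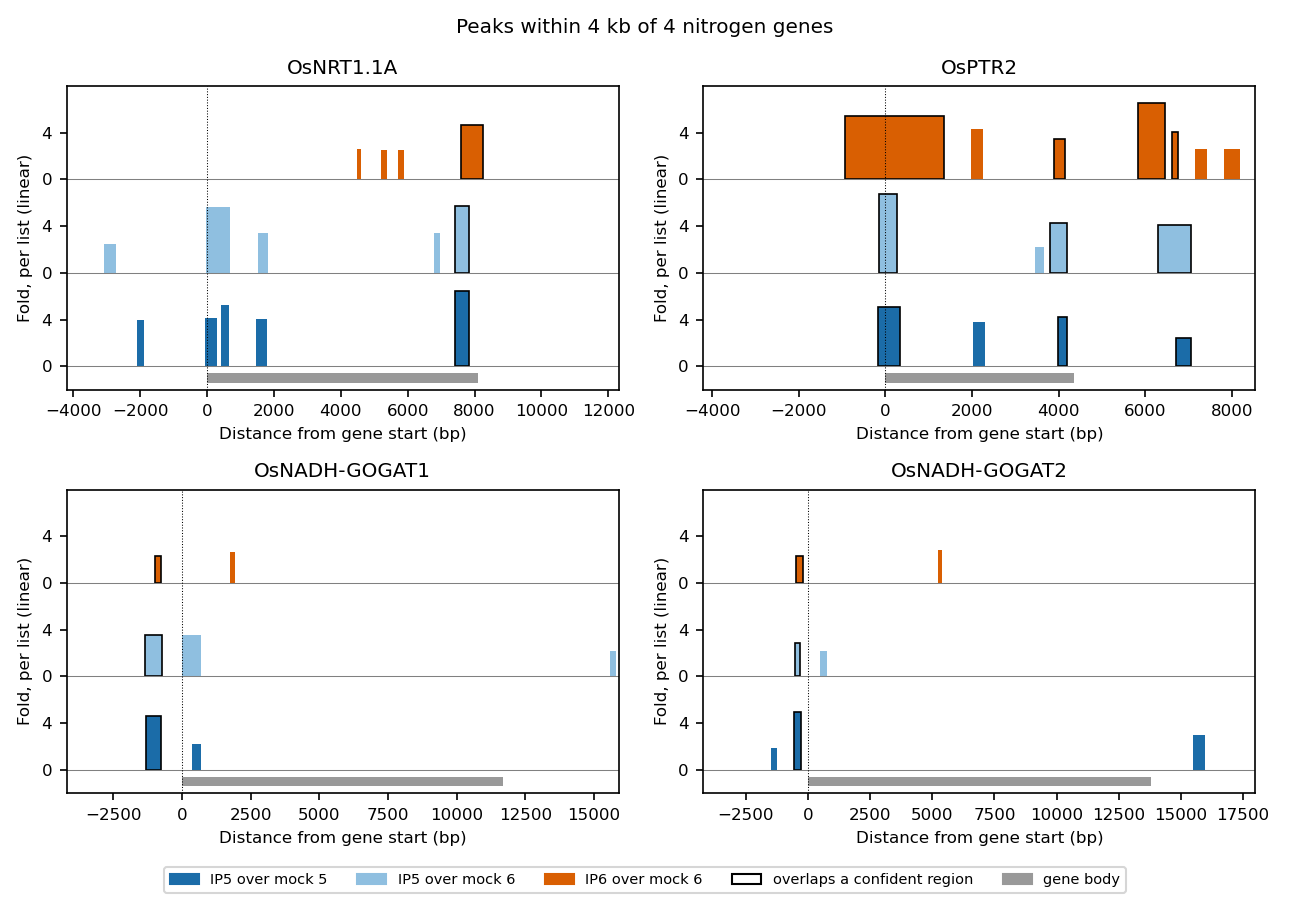
Peaks of the 3 lists within 4 kb of OsNRT1.1A, OsPTR2, OsNADH-GOGAT1 and OsNADH-GOGAT2, plotted by distance from the gene start in bp along the direction of transcription, with bar height the authors' fold on a linear scale that restarts at 0 for each list. OsNRT1.1A has IP5 bars at its start (up to 5.66) and no IP6 bar there, while OsPTR2 has bars of all 3 lists at its start (5.10 to 6.79), and black outlines mark peaks that overlap a confident region.

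The 3 ammonium assimilation genes had regions at or before their starts, with folds that differed between the replicates. OsNADH-GOGAT1 (Os01g0681900) and OsNADH-GOGAT2 (Os05g0555600) encode the NADH-dependent glutamate synthases of rice. The first is known for reuse of ammonium in roots and young organs, and the second for nitrogen recovery from old leaves. The OsNADH-GOGAT1 region lay 739 bp upstream (chromosome 1, 28103654 to 28104267), with folds of 4.60 for IP5 over mock 5, 3.58 for IP5 over mock 6 and 2.34 for IP6 over mock 6. The OsNADH-GOGAT2 region lay 214 bp upstream (chromosome 5, 27622107 to 27622439), with folds of 4.94, 2.81 and 2.32. Both regions were therefore high in IP5 over mock 5 and low in IP6, and the choice of mock moved the IP5 value of OsNADH-GOGAT2 from 4.94 to 2.81. The means over the pairs without a shared library were 3.47 ± 1.59 and 3.63 ± 1.85 (SD, n = 2), with the 2 replicates far apart at both genes. Each was the only confident region of its gene, and no other gene was assigned to it.

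OsGS1;1 (Os02g0735200) encodes a cytosolic glutamine synthetase of rice needed for normal growth and grain filling. Its region crossed the start (chromosome 2, 30677741 to 30679006) and had the opposite order of replicates, with folds of 2.16, 3.78 and 3.53 in the order of lists used above. Here the low value belonged to IP5 with mock 5, and the same IP library over mock 6 was as high as IP6.

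The nitrilase genes OsNIT4A (Os02g0635200) and OsNIT4B (Os02g0635000) shared 1 region. Nitrilases turn nitriles into acids and ammonia, and the NIT4 type is known in plants for detoxifying cyanide products. The region (chromosome 2, 25465711 to 25466086) crossed the start of OsNIT4A and lay 3124 bp downstream of OsNIT4B, with folds of 2.43, 4.41 and 2.88. The pair is counted as 2 genes in the GO terms and is 1 place on the chromosome. The table gives OsNIT1 and OsNIT2 as synonyms of both entries.

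The ion pump genes had lower folds in the pairs without a shared library. OSA2 (Os07g0191200) encodes a plasma membrane proton pump, and its region crossed the start (chromosome 7, 4914641 to 4914947) with folds of 2.81, 4.97 and 2.78. IP5 over mock 5 and IP6 over mock 6 were alike there, while IP5 over mock 6 was higher. OsHMA8 (Os04g0556000), a heavy-metal pump gene listed by the authors under copper transport, had 2.12, 3.34 and 2.80 in a region 1361 bp downstream (chromosome 4, 27836895 to 27837508), which lay inside a different gene, Os04g0556100.

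A group of 4 JAZ genes entered through the nitrogen starvation term. JAZ proteins are repressors of jasmonate signaling, a wound and defence hormone pathway, and are not enzymes or transporters of nitrogen. In the authors' deposited table all 4 also stood under starvation for potassium and for zinc and under response to wounding. OsJAZ5 (Os03g0402800) had folds of 2.996 over mock 5 and 3.95 over mock 6 for IP5, and 3.01 for IP6, in a region that began 4 bp inside the gene start (chromosome 3, 16409348 to 16410003). OsJAZ9 (Os08g0428400) had 4.17, 4.67 and 2.98 in a region across its start (chromosome 8, 20627343 to 20628265). OsJAZ7 (Os09g0439200) had 2.32, 3.69 and 2.31 in a region across its start (chromosome 9, 16274718 to 16275813). OsJAZ6 (Os07g0615200) had 2.64, 4.80 and 4.10 in a region 1145 bp upstream (chromosome 7, 25346547 to 25346914). The OsJAZ5 region thus lay inside the gene near its start, those of OsJAZ7 and OsJAZ9 across the start and that of OsJAZ6 upstream. IP5 was higher over mock 6 than over mock 5 in each, the order seen at 61.7% of all regions. JAZ names in the table overlap between entries, so the identifiers decide which gene is meant.

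The 3 transcription factor genes had regions upstream of the gene. Their folds ran from 2.45 to 2.79 in IP5 over mock 5 and from 2.06 to 3.10 in IP6 over mock 6, where the OsDREB1C value was above the median of the 24 regions, 2.99. OsDREB1C (Os06g0127100), an AP2/ERF factor known in rice to raise nitrogen uptake and photosynthesis when overexpressed, had 2.79 over mock 5 and 2.03 over mock 6 for IP5, and 3.10 for IP6, in a region 1611 bp upstream (chromosome 6, 1432729 to 1433158). OsbZIP18 (Os02g0203000), a bZIP factor, had 2.45, 2.96 and 2.06, 164 bp upstream (chromosome 2, 5763293 to 5763674). OsERF069 (Os03g0183200), an AP2/ERF factor, had 2.65, 3.03 and 2.301 in a region 3865 bp upstream (chromosome 3, 4372319 to 4373509). That region crossed the start of a second AP2/ERF gene, OsERF#064 (Os03g0183300). The OsbZIP18 fold in IP6, 2.06, was the lowest of the 24 regions in that list.

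The other 4 genes were of mixed kinds. OsCIPK02 (Os07g0678600), a CBL-interacting protein kinase gene, had 2 regions. The stronger one lay 3907 bp downstream (chromosome 7, 28721947 to 28722909), close to the largest distance in the authors' table, 3999 bp, with folds of 6.28, 3.31 and 4.18. The weaker one crossed the start (28729307 to 28729728), with 3.52, 3.03 and 2.96. The gene-start value is thus the lower in each list, and a count of the gene by its highest fold would rest on the distant region.

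OsTET2 (Os02g0219800), a tetraspanin gene, had 3.38, 4.63 and 2.57 in a region across its start (chromosome 2, 6676823 to 6677671). The IP5 over mock 5 peak of 3.38 lay inside the gene, at 6677451 to 6677671. It did not overlap the IP6 peak of 2.57, at 6676931 to 6677227. A lower IP5 over mock 5 peak overlapped that IP6 peak by 126 bp. A second region 2652 bp downstream (6682664 to 6683221) had 2.95, 4.95 and 2.81 and crossed the start of Os02g0219900. OsENOD93-1 (Os06g0142350), an early-nodulin-like gene known in rice for higher nitrogen use when overexpressed, had a region 2091 bp downstream (chromosome 6, 2205798 to 2206670), with 2.80, 2.75 and 3.29. The other was 2680 bp upstream (2212237 to 2213721), with 3.17, 3.55 and 2.99. The 3.55 came from an IP5 over mock 6 peak at 2211460 to 2212326, mostly outside the region. It did not overlap the IP5 over mock 5 peak of 3.17, at 2212714 to 2212951. Each OsENOD93-1 region touched the start of a neighbour that the table also names OsENOD93, Os06g0142300 and Os06g0142400. These are copies of 1 family beside each other, and how reads matching several copies were treated is not known here. Os01g0178000, which has no symbol in the table, had 4.43, 4.43 and 3.42 in a region 1949 bp upstream (chromosome 1, 4059521 to 4059897) that lay inside Os01g0178100. The IP5 fold was the same over either mock there. The value itself recurred elsewhere, as at a peak inside OsERF069 in IP5 over mock 5 (4.43), so it is not particular to this gene. Equal IP5 folds over both mocks also occurred at other regions, as 4.19 over each at a region on chromosome 11. The equality is therefore not read as agreement between the mocks.

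**Figure D2:**
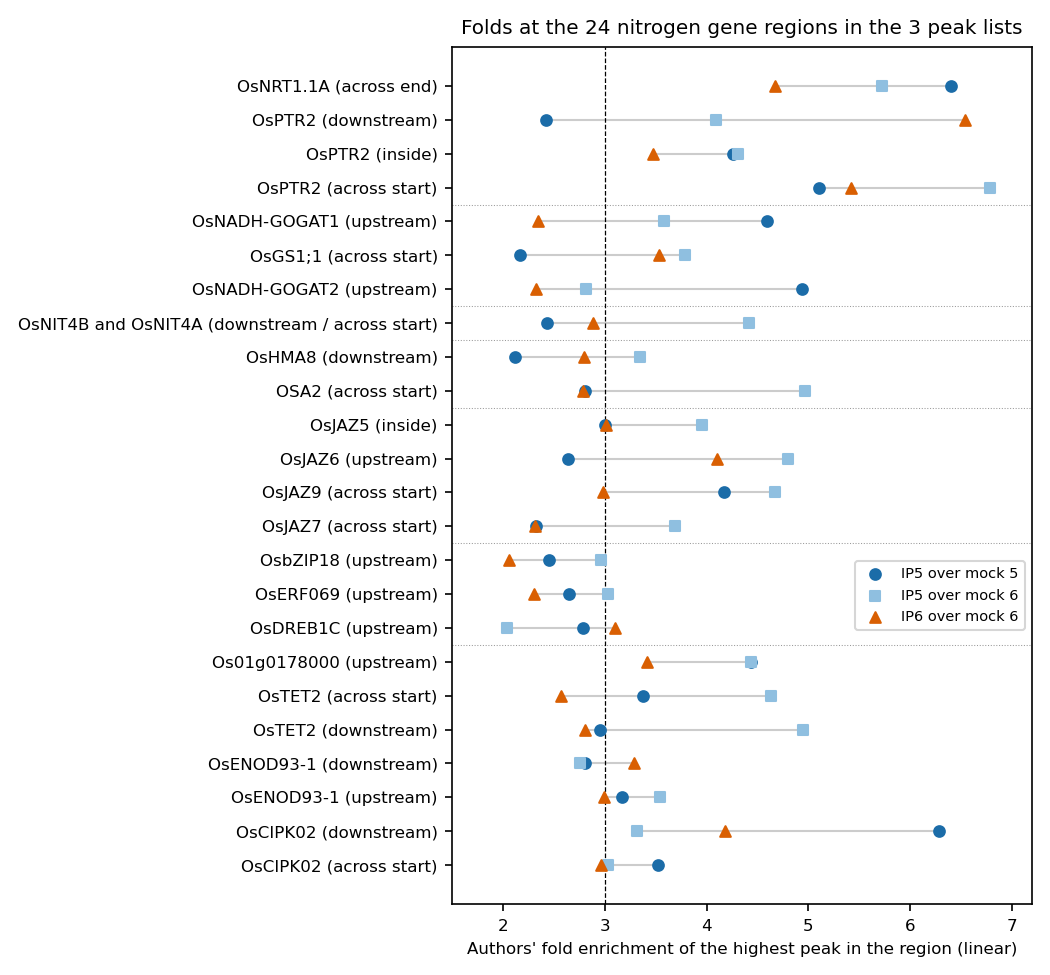
Authors' fold enrichment (linear scale) of the highest peak at each of the 24 regions, for IP5 over mock 5 (circles), IP5 over mock 6 (squares) and IP6 over mock 6 (triangles), with genes grouped by role and a dashed line at a fold of 3. The OsNRT1.1A region and the OsPTR2 start region stand to the right of 4 in all 3 lists, while both GOGAT genes spread from 2.32 or 2.34 to 4.94 or 4.60.

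Across the 24 regions the median fold was 2.97 for IP5 over mock 5 (range 2.12 to 6.40), 3.87 for IP5 over mock 6 (2.03 to 6.79) and 2.99 for IP6 over mock 6 (2.06 to 6.54). Over all 1442 regions the medians were 3.31, 3.82 and 3.08. The lowest fold among the authors' shared peaks was 2.00 in each list. The full lists hold lower folds, as 1.69 near the OsERF069 start in IP5 over mock 5. Ranges, medians and gaps between replicates are thus those of a set without folds below that floor. A fold of 3 or more in both pairs without a shared library was reached at 5 of the 24 regions, against 34.7% of all regions. Those 5 were OsNRT1.1A at its end, OsPTR2 at its start and inside, OsCIPK02 downstream and Os01g0178000 upstream. Alone, IP5 over mock 5 reached 3 at 11 of 24 (60.7% of all regions) and IP6 over mock 6 at 11 of 24 (54.8%). IP5 over mock 6 reached it at 20 of 24, against 82.9%. With mock 6 as the control of both IP libraries, 9 of 24 reached 3 in both, against 47.7%. At a fold of 4 in both pairs 3 of 24 remained, and 7.56% of all regions. These folds come from the peaks that chose the genes, so the counts describe them and no test was made.

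The gap between the replicates was limited by the choice of regions, since each had to hold a peak in every list. The peaks compared could also lie at different places, as at the OsTET2 start region and the downstream OsPTR2 region. The SD between IP5 over mock 5 and IP6 over mock 6 had a median of 0.44 over the 24 regions, from 0.00618 at OsJAZ7 to 2.92 at the downstream OsPTR2 region, and 0.58 over all regions. The fold was higher in IP5 over mock 5 than in IP6 over mock 6 at 15 of 24 regions, beside 57.1% of all. IP5 had a higher fold over mock 6 than over mock 5 at 16 of 24, beside 61.7%. The ratio of these values ran from 0.527 to 1.82. The highest peak was taken in each list separately, so the ratio mixes the choice of mock with the choice and edges of the peak. At the upstream OsENOD93-1 region the IP5 peaks used did not overlap. At all 24 regions a peak of IP5 over mock 5 overlapped one of IP6 over mock 6 directly, by 21 bp (OsENOD93-1 upstream) to 817 bp (OsJAZ9), with a median of 182 bp. Among all regions 93% had such an overlap, the rest being joined only through IP5 over mock 6.

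**Figure D3:**
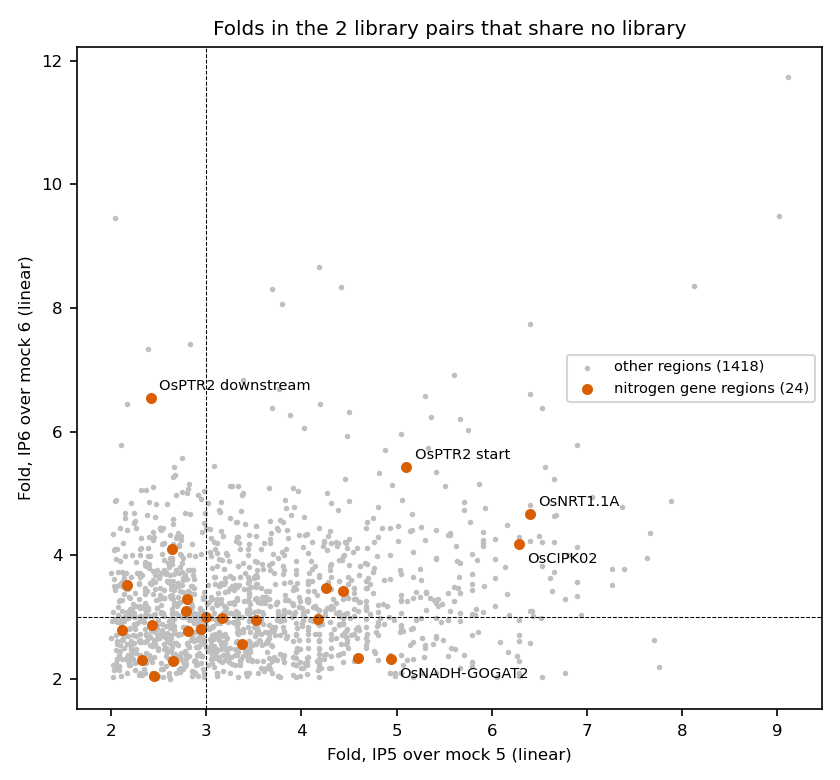
Fold in IP5 over mock 5 (horizontal) against fold in IP6 over mock 6 (vertical), both linear, for the 24 nitrogen gene regions (large points) and the other confident regions (small points), with dashed lines at 3. Of the 24 regions, 5 lie above and to the right of both lines, among them OsNRT1.1A and the OsPTR2 start, and the downstream OsPTR2 region lies at the upper left (2.42 and 6.54).

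By position, 8 of the 25 region-gene pairs had the region across the gene start (21.6% of all 2862 pairs), 8 had it upstream (25.7%), 6 downstream (29.2%), 2 inside (8% of the 25 against 16.4%) and 1 across the end (4.82%). With regions that span a whole gene counted as well, 23.8% of all pairs touched the start, against the same 8 of 25. The share of genes given below, 26.3%, uses this wider count. The region overlapped the gene in 11 of 25 pairs, against 45.2%. The genes with a region across the start were OsPTR2, OsGS1;1, OsNIT4A, OSA2, OsJAZ7, OsJAZ9, OsTET2 and OsCIPK02, 8 of 20 against 26.3% of all genes. Counting also regions with a midpoint up to 2 kb upstream gave 13 of 20 genes, against 39.2%, or 13 of 25 pairs, against 36%. The midpoint was within 500 bp of the start in 11 of 25 pairs, against 32.6%. The genes shared the position near starts with many others in the table, and the differences in share were not tested. Positions are those of merged regions, and the highest peak itself crossed the start in all 3 lists only at OsPTR2 and OsCIPK02. At OsJAZ9 it did so in the pairs without a shared library, and at OsTET2 in both lists over mock 6. At OsJAZ7 and OSA2 it did so only in IP5 over mock 6. At OsGS1;1 it did so only in IP6, and at OsNIT4A only in IP5 over mock 5.

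A gene named by the GO term was not always the gene closest to the peak. It was the nearest one in 17 of 25 pairs (56.7% of all pairs), and 15 of 20 genes were nearest to at least 1 of their regions (58.4%). Ties were counted as nearest, as at OsNRT1.1A, whose region also overlapped Os08g0155550. The 5 genes never nearest were Os01g0178000, OsNIT4B, OsERF069, OsHMA8 and OsENOD93-1. In the 8 pairs where another gene was nearer, the region overlapped that gene, against 79.7% of the 1240 such pairs in the table, and in 6 of them it touched that gene's start, against 48.5%. Several regions were held by 4 of 20 genes (OsPTR2, OsTET2, OsENOD93-1 and OsCIPK02), beside 9.81% of all genes.

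**Figure D4:**
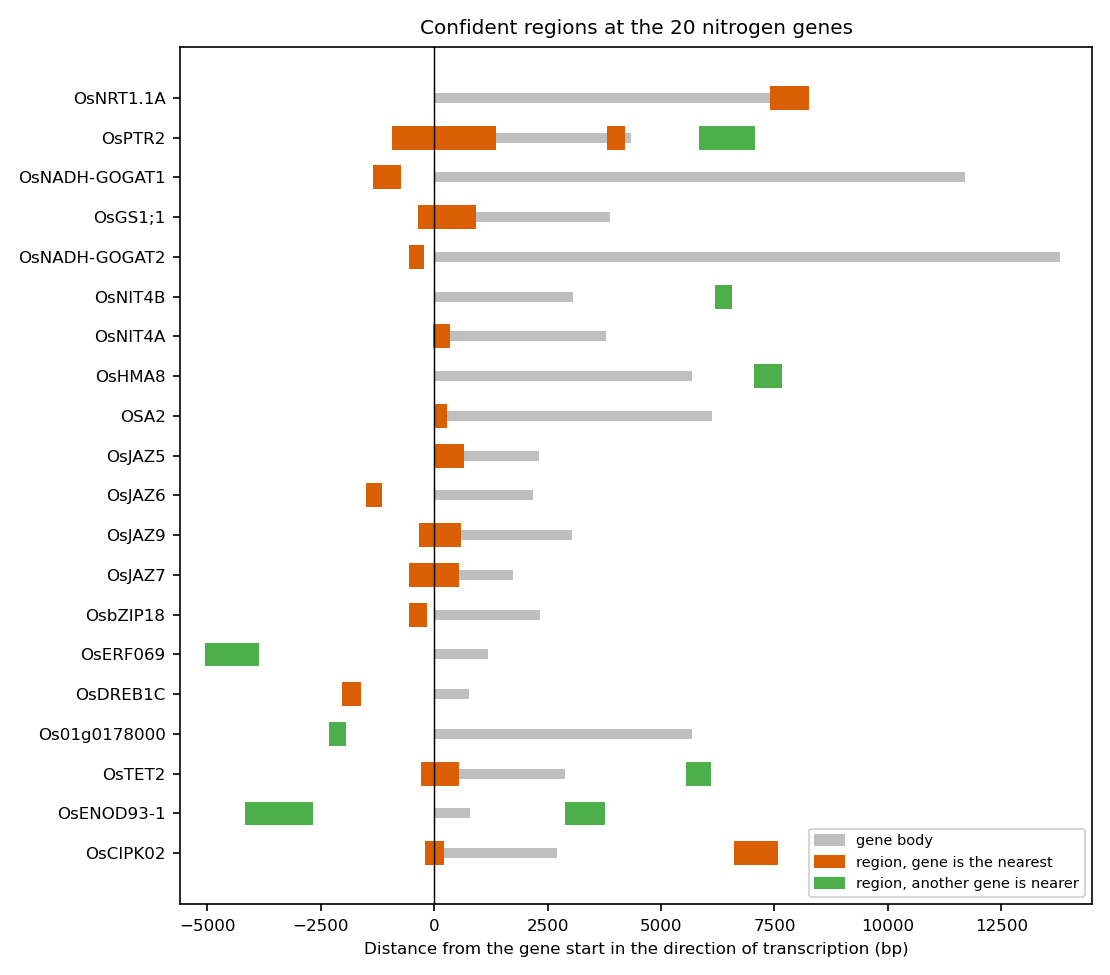
Confident regions at the 20 genes, plotted by distance in bp from the gene start along the direction of transcription. Gene bodies are grey, and regions are orange where the gene is the nearest or tied for it and green where another gene is nearer. Regions cross the start line at 8 genes, and the 8 green regions include both of OsENOD93-1 and the downstream ones of OsPTR2, OsTET2, OsNIT4B and OsHMA8.

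Peaks outside confident regions were common near these genes and near the others in the table. A peak of this kind lay within 4 kb of 16 of the 20 genes in IP5 over mock 5 (60% of all 2589 genes). In IP5 over mock 6 it was 17 genes (87.1%), and in IP6 over mock 6 it was 14 (53.5%). Its fold exceeded that of the gene's own confident regions in the same list at 7, 2 and 8 genes, against 27.2%, 27% and 20.2%.

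In the authors' deposited table response to nitrate held 17 of 87 genes (19.5%, false discovery rate 0.00222), nitrogen starvation 14 of 74 (18.9%, 0.0075) and response to ammonium ion 12 of 64 (18.8%, 0.0144). For scale, 2589 genes are 8.8% of 29427, the protein-coding genes that RefSeq annotates on a different assembly. Of these, 11 nitrate, 14 starvation and 6 ammonium genes are among the 20. The terms share genes: OsNRT1.1A, OsNADH-GOGAT1 and OsGS1;1 are under all 3, another 5 genes are under 2, and 12 are under 1. The auxin, inflorescence and flower genes set aside made up 6 of the 17 nitrate genes and 6 of the 12 ammonium genes and 0 of the 14 starvation genes. In the authors' deposited table glutamate synthase (NADH) activity had 2 of 2 genes and nitrate transport 4 of 9. The nitrate transport genes were OsPTR2, OsDREB1C, Os01g0178000 and OsBT (Os01g0908200). OsBT is not among the 20 and had a region 3151 bp upstream with folds of 5.41, 4.93 and 2.996.

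Of 39 genes of nitrogen transport, assimilation and regulation written from textbook knowledge, 5 were in the confident table. These were OsNRT1.1A, OsGS1;1, both NADH-GOGAT genes and OsASN2 (Os06g0265000), an asparagine synthetase gene. OsASN2 is not among the 20, and its region lay 1404 bp downstream (chromosome 6, 8757200 to 8757531) with folds of 4.31, 4.25 and 3.19. By kind, the table held 1 of 6 nitrate transporters of the list, 1 of 4 glutamine synthetases, 2 of 3 glutamate synthases and 1 of 2 asparagine synthetases. It held 0 of 9 ammonium transporters, 0 of 2 nitrate reductases, 0 of 1 nitrite reductases, 0 of 2 nitrate transporter partner genes, 0 of 6 NIN-like regulators and 0 of 4 other regulators. The share of 5 in 39 stands beside the 8.8% above, and 4 of the 5 are among the genes described here. A gene with a wrongly recalled identifier or name would count as having no region.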

How the data were processed

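Per the submitters' processing notes, the tools were MACS2, Bowtie2, fastp, deepTools and SAMtools. Their versions and settings, and the genome build, are not stated there. Coordinates are printed as deposited. The authors deposited read counts per library, and 3 peak lists of 1 IP over 1 mock each, not pooled, with fold enrichment (a ratio of IP to mock by the peak caller) and −log10 values of p and q. They also deposited GO terms with gene counts and −log10 of a false discovery rate, by a tool not given here. The first sheet of the workbook says that the authors merged peaks shared by the 3 lists and assigned them to genes in proximity.

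For each region the highest peak overlapping it by 1 bp or more was taken from each list. Positions are those of the authors' table. No test was made: the genes were chosen from these peaks, and a fold comes from 1 library pair, so values stand beside those of all regions. The highest-peak lookup was tested on 200 simulated regions, some of which could hold no planted peak, and its answer was right at 200. The genes, roles and lists were chosen with earlier results of these data known. In all, 32 counts were set beside a background. Of these, the counts by position and of a fold of 3 or more in both pairs without a shared library, its alternatives and the count over the 39 genes were planned. The grouping by role, the counts by nearest or nearer gene, 500 bp window, several regions, direct overlap and order of folds, the detailed view of 4 loci, and the look at peaks outside confident regions were added after the values had been seen. Every gene with a symbol is named, and Os01g0178000, the only gene without one, was named by identifier although it was not among the 5 of highest fold. The 39 genes were matched by identifier or symbol. No identifier of the 20 genes (0) occurs in the RefSeq table (ASM3414082v1), which gave a gene number only. Python 3.11.15, numpy 2.4.6, pandas 2.3.3 and matplotlib 3.10.9 were used.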

Additional observations from a re-analysis of the deposited data

Results flagged for a closer look

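Peaks within 4 kb of the 20 genes but outside confident regions were looked at because the comparisons of folds at confident regions do not use them. IP5 over mock 5 had 25 of them, IP5 over mock 6 had 36 and IP6 over mock 6 had 22. The lists hold 24169, 58213 and 10602 peaks in all, and such peaks were near 60%, 87.1% and 53.5% of all genes in the table. Their enrichment is over mock, as for the other peaks.

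Inside OsPTR2, peaks of both pairs that share no library overlapped at about the middle of the gene, with folds of 3.82 for IP5 over mock 5 (27348365 to 27348624) and 4.33 for IP6 over mock 6. No IP5 over mock 6 peak was called there, so the place is missing from the confident table. It was the only such place among the 20 genes, and the search for such places was added after the peaks below had been seen.

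Other peaks were singled out because their fold exceeded that of the gene's own confident regions in the same list. In IP5 over mock 5 they were at OsbZIP18 (3.18, inside the gene close to its start), OsTET2 (3.45, upstream), OsNIT4B (2.79, at its start), OsNIT4A (4.23, downstream), OsERF069 (4.43, inside), OsHMA8 (2.37, at its start) and OsJAZ6 (2.71, at its start). In IP5 over mock 6 they were at OsDREB1C (4.17, just before its start, and 3.16, farther upstream) and OsENOD93-1 (3.69, inside). In IP6 over mock 6 they were at OsNADH-GOGAT1 (2.64, inside), OsbZIP18 (2.92, inside), OsTET2 (3.59, inside), OsERF069 (4.004, upstream), OsNADH-GOGAT2 (2.79, inside), OsDREB1C (3.15, upstream), OsJAZ6 (4.21, downstream) and OsJAZ9 (3.23, upstream). Among peaks outside confident regions, none of these places had overlapping peaks of both pairs without a shared library. Over mock 6, both IP libraries had overlapping peaks at the farther upstream OsDREB1C place (3.16 in IP5, 3.15 in IP6). The same held upstream of OsJAZ9 (3.34 in IP5, 3.23 in IP6). These lists share mock 6.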

How the results depend on the processing

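The number of regions with a fold of 3 or more in both pairs without a shared library (5 of 24) was 9 with mock 6 as the control of IP5 and 3 at a fold threshold of 4. Leaving out replicate 5 or replicate 6 gave 11 and 11, because 1 list then has to pass in place of 2. It was 5 with peaks of q at most 0.01, with 50% of the peak inside the region and with the authors' shared peaks only. Median folds per list moved by less than the replicate SD under these 3 settings. Pairs with the region across the start or up to 2 kb upstream (13 of 25) were 10 with a 1 kb window and 5 by the midpoint alone, which drops regions whose midpoint lies inside the gene. Keeping the 7 genes set aside gave 27 genes, and requiring overlap with the gene or a region midpoint within 2 kb before its start gave 15 (16 by the region's nearer edge, an alternative chosen after seeing the data). The list of 39 gave 5 genes by identifier alone. No paired analysis was possible because the results come from no test. With 2 libraries a group, and folds from single library pairs, differences of the size seen between IP5 and IP6 cannot be told from replicate error.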

Other observations

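Among the 7 genes set aside by the choice of terms was OSA7, a second plasma membrane proton pump gene beside OSA2. Its region crossed the start, as at OSA2, with folds of 2.98 for IP5 over mock 5, 4.78 for IP5 over mock 6 and 5.05 for IP6 over mock 6. The auxin response factor genes set aside, OsARF6a, OsARF6b, OsARF7a and OsARF17, each had regions inside the gene, a position that 2 of the 25 pairs of nitrogen genes had. OsARF17 had 2 such regions, with 5.17, 4.29 and 2.04 at one and 4.06, 4.06 and 2.63 at the other.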
